A study of Mus musculus with 3 samples.

Results

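The genes examined are the nuclear-encoded subunits of the mitochondrial respiratory chain and of ATP synthase, described across 3 untreated mouse mammary tumours. They were chosen by gene symbol, with a pattern that takes the Nduf genes of complex I, Sdha to Sdhd of complex II, the Uqcr genes and Cyc1 of complex III, the genes from Cox4 to Cox8 of complex IV and the Atp5 genes. This gave 86 of 47480 gene symbols, with 38 in complex I, 4 in complex II, 9 in complex III, 18 in complex IV and 17 in ATP synthase. The pattern also takes the mitochondrially encoded genes, but these were not analysed here under their own names. Nuclear pseudogene copies of them stood in for them, as described below. All 86 symbols were matched to the gene annotation of GRCm38, of which Atp5sl was matched through its newer symbol Dmac2. A few members are not what their symbol says. Ndufa4 is now placed in complex IV, Ndufa4l2 is its paralogue, Cox7a2l is a factor of respiratory supercomplexes, and Atp5s and Atp5sl are not subunits of the enzyme.

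The 3 libraries form a single group of untreated tumours of the FVB-MMTV-Neu strain, in which the mouse mammary tumour virus promoter drives the Neu oncogene in mammary epithelium, so no treated or control group exists. Per the protocols, the tumours were implanted orthotopically, that is, at the mammary site, in syngeneic host mice, and tumours of 5 mm were left for 7 days with no treatment, whereas the design text speaks only of tumours of untreated mice. The tumours are numbered 1, 2 and 3 in deposition order. Their titles give each its own identifier, in a form for tumour 1 that differs from that of tumours 2 and 3. What the identifiers name is not stated. Nothing says that the tumours came from separate donors, so their spread may be partly technical. Library totals were 47449153, 11388769 and 17147394 estimated counts for tumours 1, 2 and 3, and tumour 1 was read in lane 1 and the others in lane 5, as the deposited tables are named, so that lane and tumour 1 cannot be told apart. Levels are CPM, that is, counts relative to library totals scaled by the TMM method, which moves the median difference of all genes in tumour 1 to 0.11, against 0.95 without scaling, on the log2 scale. Each tumour was set against the mean of the other tumours as a difference in log2 CPM. With 1 library on one side this difference has no replicate check and no test. The median of all genes is given beside it. In bulk tissue, fewer cells of a type and less RNA per cell cannot be told apart. The epithelial markers, with 10 of 10 past the filter on low counts, summed to 2229, 1806 and 2752 CPM in tumours 1, 2 and 3. Their genes did not go the same way, with tumour 1 the highest for 5 and the lowest for 4. Krt8, the highest of them, was at 407, 734 and 1038 CPM and Krt18 at 461, 245 and 453 CPM. Grhl2 was at 44.5, 2.98 and 7.25 CPM. The median difference of this list in tumour 1 was 0.23.

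The respiratory chain passes electrons from NADH through complex I, and from succinate through complex II, to complex III and then to oxygen at complex IV. Complexes I, III and IV pump protons across the inner mitochondrial membrane, and ATP synthase uses the gradient to make ATP. Complex II is encoded wholly in the nucleus and is also an enzyme of the tricarboxylic acid cycle, while every other complex mixes nuclear subunits with ones read from mitochondrial DNA. Several subunits of complex IV come in pairs, a ubiquitous form and a form restricted to muscle, testis or lung.

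Promoters of members that lead the results are shown because the nuclear factors NRF1 and GABP, an ETS factor, are known to act at promoters of this gene class. Each is the RefSeq window on GRCm38.p6 of 250 bases before and 50 bases after the start of the gene, read 5′ to 3′ on the gene's own strand. Capitals mark the NRF1 letters, which are GCGCA and GCGC with any base between them, the ETS letters CCGGAAG or the E-box letters CAGCTG, searched on both strands, and no match printed here overlaps another. Cox6a1 (chr5:115348909-115349208, minus strand), Atp5k (chr5:108434350-108434649, minus strand) and Ndufa3 (chr7:3617123-3617422, plus strand) are the members of their complexes with the highest mean level per kilobase. Cox8b (chr7:140900397-140900696, minus strand) and Cox8a (chr19:7217567-7217866, minus strand) are a muscle and a ubiquitous form of the same subunit, chosen after their values were seen.
Cox6a1: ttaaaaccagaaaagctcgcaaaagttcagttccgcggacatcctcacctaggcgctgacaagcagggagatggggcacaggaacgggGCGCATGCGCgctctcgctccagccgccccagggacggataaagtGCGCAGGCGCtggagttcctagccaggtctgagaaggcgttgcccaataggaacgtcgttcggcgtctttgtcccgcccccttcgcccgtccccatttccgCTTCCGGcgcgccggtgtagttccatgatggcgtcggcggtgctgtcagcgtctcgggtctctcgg
Atp5k: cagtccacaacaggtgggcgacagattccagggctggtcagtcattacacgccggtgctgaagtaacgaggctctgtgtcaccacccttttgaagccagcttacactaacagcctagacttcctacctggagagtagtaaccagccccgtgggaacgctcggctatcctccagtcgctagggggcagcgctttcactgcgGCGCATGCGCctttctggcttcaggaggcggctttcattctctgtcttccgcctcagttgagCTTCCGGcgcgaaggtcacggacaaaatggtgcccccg
Ndufa3: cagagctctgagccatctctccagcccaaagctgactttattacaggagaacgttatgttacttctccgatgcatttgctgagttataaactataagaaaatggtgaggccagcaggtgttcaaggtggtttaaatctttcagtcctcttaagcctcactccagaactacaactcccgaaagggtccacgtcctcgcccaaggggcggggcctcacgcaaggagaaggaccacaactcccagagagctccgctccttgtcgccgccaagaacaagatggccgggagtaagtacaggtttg
Cox8b: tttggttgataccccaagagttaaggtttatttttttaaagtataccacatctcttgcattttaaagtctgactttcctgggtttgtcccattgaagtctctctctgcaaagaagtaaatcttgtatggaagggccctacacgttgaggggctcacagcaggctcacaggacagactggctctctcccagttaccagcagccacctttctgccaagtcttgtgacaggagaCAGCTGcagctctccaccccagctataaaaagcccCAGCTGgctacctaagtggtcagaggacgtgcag
Cox8a: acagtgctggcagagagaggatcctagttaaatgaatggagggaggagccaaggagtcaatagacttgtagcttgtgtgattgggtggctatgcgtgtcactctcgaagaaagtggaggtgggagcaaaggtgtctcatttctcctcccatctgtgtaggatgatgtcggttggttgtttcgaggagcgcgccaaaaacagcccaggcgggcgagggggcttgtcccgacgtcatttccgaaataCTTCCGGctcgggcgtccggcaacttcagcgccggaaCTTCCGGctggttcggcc

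A promoter window was found for 70 members. The NRF1 letters were in 16 of them (22.9%), against 4.78% of 27025 genes with a window. The ETS letters were in 15 members (21.4%), against 9.12% of all, and the E-box letters in 6 members (8.57%), against 16.1%. The NRF1 letters were in 7 of the 30 windows of members at least 2-fold below both other tumours in tumour 1, and in 8 of the 37 windows of members that were neither that far below nor that far above. The Cox6a1 window holds the NRF1 letters more than once and the Atp5k window once, both with an ETS match, whereas none of the 3 patterns is in the Ndufa3 window. In the Cox8 pair, the muscle form has E-box letters and the ubiquitous form ETS letters. The pair of Cox7a1 and Cox7a2, chosen in the same way and not printed, does not show this. None of the 3 patterns is in either of its windows. These are matches of letters and not binding sites.

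The windows below show why the mitochondrial genes are difficult to measure in these tables. They show 60 bases of mt-Co1, which encodes the catalytic subunit of complex IV, read 5′ to 3′ in the direction of the gene on GRCm38. Within the part of mt-Co1 that the pseudogene Gm29216 covers, this stretch differs most from the nuclear pseudogene Gm13340. The rest of mt-Co1 was not searched. The windows lie at chrM:6448-6507 (plus strand) for mt-Co1, at chr1:24616071-24616130 (minus strand) for Gm29216 and at chr2:22588468-22588527 (minus strand) for Gm13340. Capitals mark bases that differ from mt-Co1.
mt-Co1: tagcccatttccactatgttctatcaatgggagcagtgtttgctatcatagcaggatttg
Gm29216: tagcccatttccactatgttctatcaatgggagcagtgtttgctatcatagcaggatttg
Gm13340: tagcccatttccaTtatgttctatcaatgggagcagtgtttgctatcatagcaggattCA

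Gm29216 had 0 differences from mt-Co1 in this window and Gm13340 had 3. With reads of 50 bases, a read that lies within Gm29216 here carries no base that sets it apart from mitochondrial RNA.

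The nuclear subunit genes were lower in tumour 1 than in the other tumours, in all complexes but complex II. Of the 86 members, 83 passed the filter on low counts, which needs a level above a cutoff in every library. The others are the complex IV isoforms Cox6a2, which had only 12 counts in tumour 1, Cox7b2 and Cox8c. The median difference of the 83 members from the other tumours was −1.01 in tumour 1, against 0.11 for all 12710 genes past the filter. It was 0.18 in tumour 2 (all genes −0.09) and 0.74 in tumour 3 (all genes 0.01). The sign in tumour 2 depends on the setting, since it was −0.53 with library totals alone (all genes −0.78) and −0.34 against tumour 3 alone. Summed over all members, the levels were 8581 CPM in tumour 1, 18704 CPM in tumour 2 and 20327 CPM in tumour 3. As a share of the library before any scaling, the members held 1.25, 1.32 and 1.87% of counts in tumours 1, 2 and 3. The order of the tumours is thus the same for the summed levels and for the raw share, but the gap between tumours 1 and 2 is much smaller in the share.

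Counted by gene, 36 of 83 members were at least 2-fold below both other tumours in tumour 1, where 20.7% of all genes were. Another 4 members were at least 2-fold above both, where 22.1% of all genes were. With library totals alone as the scale, these counts became 16 below and 10 above, where 10.5 and 40.4% of all genes were. At 4-fold, 15 members were below (8.21% of all genes) and 1 was above (6.05%). Tumour 1 was the lowest of the 3 for 57 members and the highest for 15, against 41.6 and 47.1% of all genes. For all 83 members the spread of counts over the libraries exceeded counting error (chi-square test with p adjusted by Benjamini-Hochberg over all genes, threshold 0.05), which also held for 94.2% of all genes, so the members were not unusual in this.

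Read in the same lane, tumours 2 and 3 were closer to each other. The median of tumour 2 minus tumour 3 over the members was −0.34, against −0.03 for all genes. Only 3 members were at least 2-fold higher in tumour 2 than in tumour 3 (7.39% of all genes), namely Ndufa3, Ndufa4l2 and Cox4i2. Another 10 members were at least 2-fold lower (8.81% of all genes), among them Uqcrc2, Uqcrfs1, Sdha, Atp5j, Cox7b and Ndufa4. Against both other tumours, 3 members were at least 2-fold above (5.43% of all genes) and 7 below (7.14%) in tumour 2. In tumour 3 the only such member was Atp5o, a stalk subunit of ATP synthase, which was above (0.865% of all genes), and 0 members were below (1.35%). At 4-fold, 0 members were above and 0 below in tumour 2, where 0.252 and 0.59% of all genes were, and likewise 0 and 0 in tumour 3, where 0.0787 and 0.0787% were.

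The complexes differed in how far tumour 1 stood from the others. The median difference was −1.17 over the 38 genes of complex I, 0.85 over the 4 of complex II, −0.58 over the 9 of complex III, −1.87 over the 15 of complex IV and −0.65 over the 17 of ATP synthase. Members at least 2-fold below in tumour 1 numbered 19 in complex I, 0 in complex II, 3 in complex III, 10 in complex IV and 4 in ATP synthase, where 20.7% of all genes were, a share that the 4 of 17 in ATP synthase are close to and that the 4 genes of complex II are too few to be read against. Leaving out tumour 2 as a comparison library moved the median of complex II to 0.50 and that of ATP synthase to −0.96, and leaving out tumour 3 moved complex III to −0.27 and ATP synthase to −0.38. With library totals alone, the medians of complex III and ATP synthase turned to 0.27 and 0.19, while the median of all genes was 0.95. Relative to the median of all genes, complex III stood at −0.69 with TMM scaling and −0.68 with library totals alone, ATP synthase at −0.76 under both, and complex II at 0.74 and 0.75. A scaling shifts all genes of a library alike, so these relative values are bound to stay nearly the same.

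**Figure D1:**
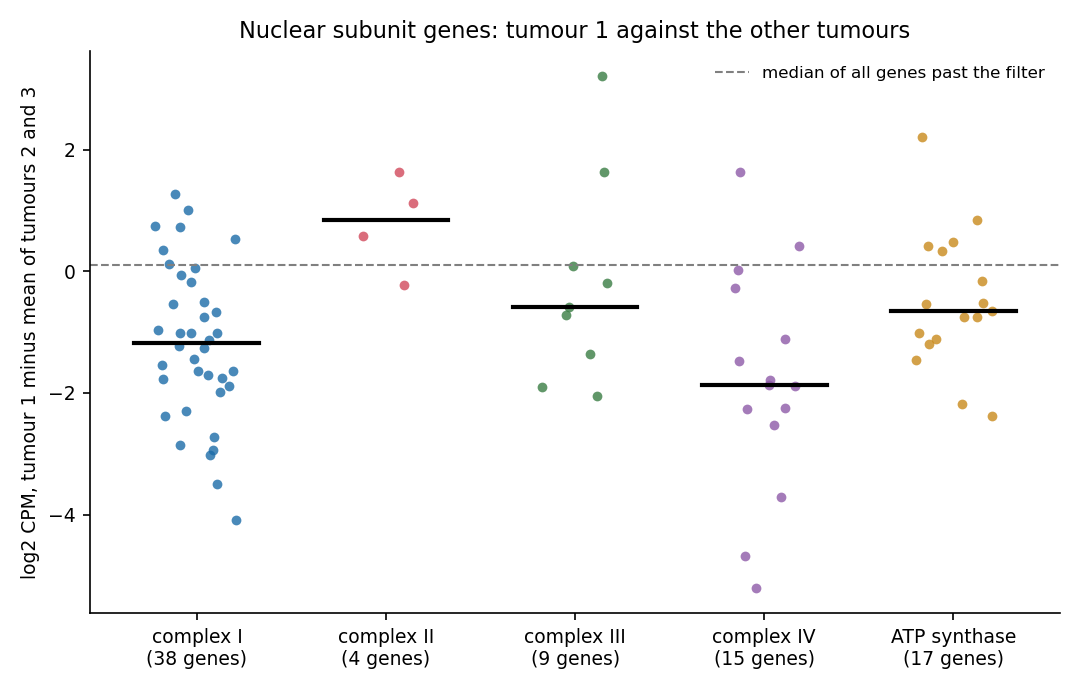
The difference in log2 CPM of tumour 1 from the mean of tumours 2 and 3 is plotted for each of the 83 nuclear members past the filter, grouped by complex (points, genes; bars, medians of −1.17, 0.85, −0.58, −1.87 and −0.65 from complex I to ATP synthase). The dashed line is the median of all genes, 0.11, and the bar of complex II alone lies above it under TMM scaling; with library totals alone the bars of complexes III and ATP synthase turn positive, below an all-gene median of 0.95.

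Levels between complexes can be compared only per transcript length. Over the principal transcripts, the median level of complex II was 52.3, 29.2 and 44.6 CPM per kilobase in tumours 1, 2 and 3, the lowest of the 5 complexes in each tumour. Complex I followed with 64.1, 111 and 134 CPM per kilobase. The medians of the other complexes were higher and their order differed between tumours, with ATP synthase at 162, 165 and 241, complex III at 143, 173 and 231 and complex IV at 159, 249 and 368 CPM per kilobase. As means over the tumours these are 42.0 ± 11.8 for complex II, 103 ± 35.7 for complex I, 183 ± 44.7 for complex III, 189 ± 45.0 for ATP synthase and 258 ± 105 CPM per kilobase for complex IV (SD, n = 3). The SDs of complex III, ATP synthase and complex IV overlap, while within each tumour complex IV was above complex III.

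Complex I, the NADH dehydrogenase, has a core of 7 nuclear subunits that carry the flavin and the iron-sulfur clusters. Ndufv1, which binds NADH, was at 115, 151 and 185 CPM in tumours 1, 2 and 3, and its partner Ndufv2 at 71.8, 276 and 220 CPM. Ndufs8, an iron-sulfur subunit of the arm that reduces ubiquinone, was at 60.9, 146 and 246 CPM. Ndufv2 and Ndufs8 were the only core genes at least 2-fold below both other tumours in tumour 1. Ndufs1, the largest subunit (chromosome 1, 63143596 to 63176833, minus strand), went the other way, with 57.6 CPM in tumour 1 against 20.3 CPM in tumour 2 and 28.0 CPM in tumour 3. It was at least 2-fold above both others in tumour 1. The median difference of the core in tumour 1 was −1.01.

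The 29 accessory subunits, which surround the core and are needed for its assembly and stability, had a median difference of −1.26 in tumour 1. Of them 16 were at least 2-fold below and 0 at least 2-fold above, where 20.7 and 22.1% of all genes were. Ndufa3 (chromosome 7, 3617373 to 3620327, plus strand) was at 66.8 CPM in tumour 1, 1093 CPM in tumour 2 and 528 CPM in tumour 3, a difference of −3.51. This is the widest gap among the accessory subunits, and tumour 2 also exceeded tumour 3, by 1.05. Ndufa2 was at 65.1, 529 and 531 CPM, Ndufs6 at 70.3, 554 and 466 CPM, and Ndufb7 at 53.1, 476 and 348 CPM. In these genes tumours 2 and 3 lie close together and far above tumour 1. Ndufa7 (66.7, 449 and 436 CPM), Ndufa11 (72.6, 341 and 372 CPM) and Ndufs5 (43.9, 288 and 182 CPM) complete the accessory genes that were at least 4-fold below in tumour 1. Other accessory subunits had tumour 1 between the other tumours, among them Ndufb5 at 58.1, 40.6 and 77.1 CPM and Ndufs4 at 40.4, 32.2 and 54.6 CPM.

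Succinate dehydrogenase, complex II, has 4 genes, of which Sdha was at least 2-fold above both other tumours in tumour 1 and 0 were that far below. Sdha, the flavoprotein that oxidises succinate (chromosome 13, 74322254 to 74350280, minus strand), was at 124 CPM in tumour 1, 26.7 CPM in tumour 2 and 59.7 CPM in tumour 3, a difference of 1.63. Its iron-sulfur partner Sdhb was at 70.5, 36.9 and 60.6 CPM, and the membrane anchors were at 82.9, 82.4 and 115 CPM for Sdhc and 159, 60.7 and 88.3 CPM for Sdhd. Tumour 1 was the highest for Sdha, Sdhb and Sdhd but not for Sdhc, and tumour 2 was the lowest for all 4 genes. In sum the complex held 437, 207 and 323 CPM.

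The genes of complex III, the cytochrome bc1 complex, did not move as a block. Uqcrc2, one of the core proteins (chromosome 7, 120635176 to 120659524, plus strand), had 88.6 CPM in tumour 1, against 5.97 CPM in tumour 2 and 15.2 CPM in tumour 3. With a difference of 3.21 it was the only member at least 4-fold above in tumour 1. Its partner in the same core, Uqcrc1, was at 239, 408 and 313 CPM, a difference of −0.58. Under TMM scaling the core pair thus stood on opposite sides, but with library totals alone the difference of Uqcrc1 was 0.27 and both were higher in tumour 1. Uqcrfs1, the Rieske iron-sulfur protein, was at 85.0, 17.3 and 43.3 CPM, with tumour 1 the highest, and Cyc1, cytochrome c1, at 123, 85.3 and 156 CPM, with tumour 1 between the others. Of the 5 small subunits, 3 were at least 2-fold below in tumour 1, namely Uqcr11 (90.4, 354 and 400 CPM), Uqcrq (109, 378 and 436 CPM) and Uqcrh (118, 296 and 308 CPM).

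**Figure D2:**
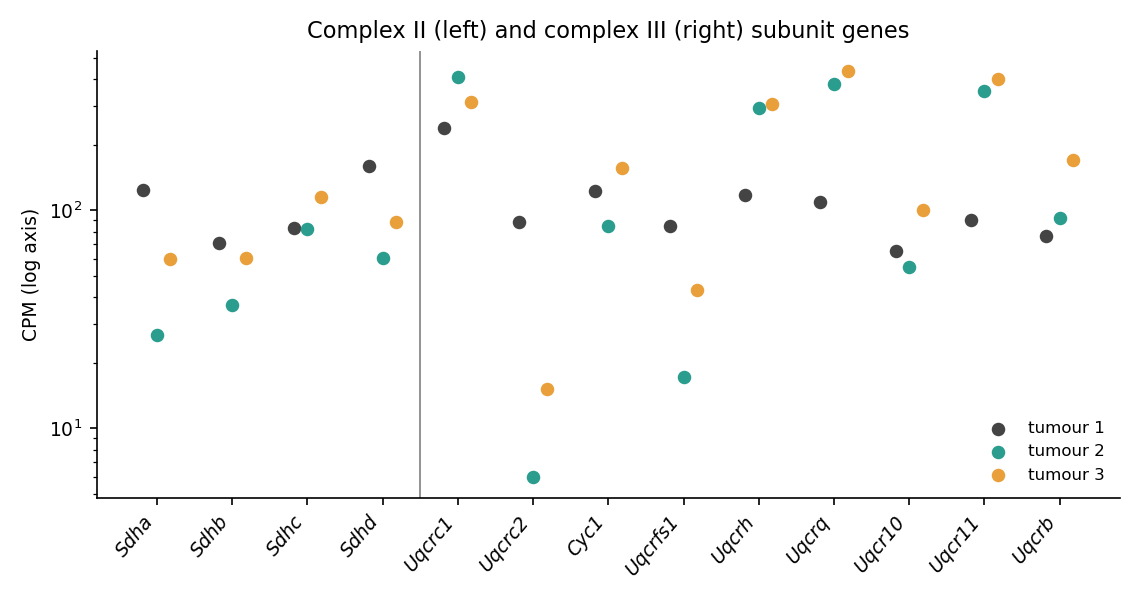
CPM of the 4 complex II genes (left of the line) and the 9 complex III genes (right) is plotted on a log axis, with a point for each tumour. Tumour 1 (black) lies at the top for Sdha, Sdhb, Sdhd, Uqcrc2 and Uqcrfs1 and at the bottom for Uqcrc1, Uqcrh, Uqcrq, Uqcr11 and Uqcrb.

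Cytochrome c oxidase, complex IV, had the lowest median in tumour 1 and the widest spread between tumours, with a median SD of log2 CPM of 1.20 over its members against 0.72 for all genes. Cox4i1, the largest nuclear subunit (chromosome 8, 120668222 to 120674207, plus strand), was at 185 CPM in tumour 1, 1176 CPM in tumour 2 and 962 CPM in tumour 3, a difference of −2.53. Cox6a1, the ubiquitous form of subunit 6A whose promoter is shown above, was at 232, 1061 and 1164 CPM, a difference of −2.26, and had the highest mean level of all members per kilobase of longest transcript, at 1320 CPM. Tumour 1 lies more than 4-fold below both others in these genes. Cox6b1 followed at 157, 605 and 545 CPM, and Cox7c at 134, 515 and 787 CPM. Others did not share this. Cox8a was at 300, 160 and 317 CPM, Cox5b at 137, 152 and 180 CPM, and Cox7b, on the X chromosome, at 82.3, 15.4 and 44.9 CPM with tumour 1 the highest.

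Among the tissue-restricted forms of complex IV, Cox8b and Cox7a1 were the members past the filter farthest below in tumour 1. Cox8b, the form of subunit 8 of heart and skeletal muscle (chromosome 7, 140898945 to 140900446, minus strand), was at 2.14 CPM in tumour 1 (95% Poisson interval 1.81 to 2.51), 77.4 CPM in tumour 2 and 84.9 CPM in tumour 3, a difference of −5.20. Cox7a1, the muscle form of subunit 7A, was at 1.94, 59.8 and 44.5 CPM. Cox6a2, the muscle form of subunit 6A, was at 0.173 CPM from 12 counts in tumour 1, 59.3 CPM from 477 counts in tumour 2 and 58.0 CPM from 912 counts in tumour 3. The 3 muscle forms were thus close to 0 in tumour 1 and between 44.5 and 84.9 CPM in tumours 2 and 3. Cox4i2, the form of subunit 4 known from lung, was at 1.55, 32.7 and 13.4 CPM. Cox6b2, known from testis, stayed low at 0.708, 3.98 and 1.97 CPM, and the testis forms Cox7b2 and Cox8c had 0 counts in every tumour, which allows up to 0.0434, 0.373 and 0.191 CPM in tumours 1, 2 and 3 (3 counts per library, counting error only).

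Within a pair of forms, the share of counts of the tissue form does not depend on the scaling of libraries. Cox8b made up 0.709% of the counts of Cox8b and Cox8a in tumour 1, 32.7% in tumour 2 and 21.1% in tumour 3 (95% Wilson intervals 0.604 to 0.832, 30.6 to 34.8 and 20.1 to 22.2%). Cox7a1 made up 1.69, 44.6 and 21.2% of its pair with Cox7a2, and Cox6a2 made up 0.0748, 5.29 and 4.75% of its pair with Cox6a1. The intervals of tumour 1 lay below those of both other tumours in these pairs, and they cover counting error only. Cox4i2 made up 0.831, 2.70 and 1.37% of its pair with Cox4i1. The testis form Cox6b2 differed from these, with 0.448, 0.653 and 0.360% of its pair with Cox6b1, where tumour 3 was the lowest and its interval overlapped that of tumour 1. The paralogue Ndufa4l2, which is known to be induced in low oxygen, was at 6.19, 168 and 68.3 CPM, while Ndufa4 was at 177, 51.8 and 148 CPM. Ndufa4l2 thus made up 3.38, 76.4 and 31.6% of its pair, and in tumour 2 it outnumbered Ndufa4.

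**Figure D3:**
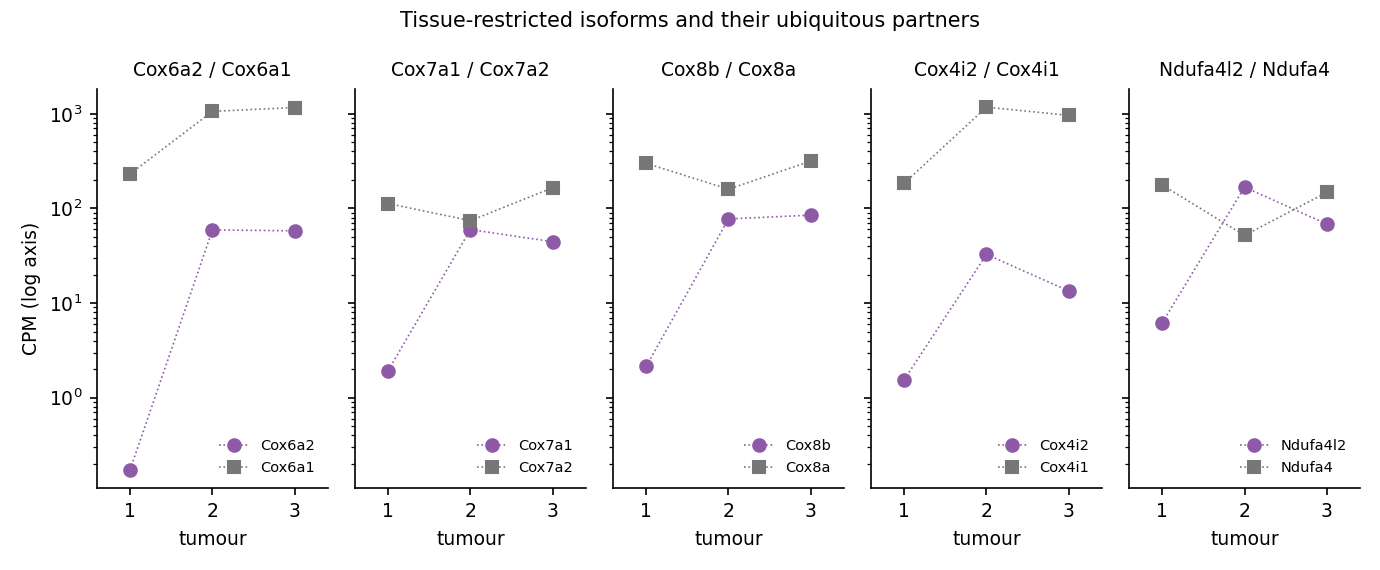
CPM on a log axis is plotted by tumour for the tissue-restricted forms Cox6a2, Cox7a1, Cox8b and Cox4i2 and for the paralogue Ndufa4l2 (circles). Squares show the partner of each. Each circle is lowest in tumour 1, at 0.173 CPM for Cox6a2 and 2.14 CPM for Cox8b, and the Ndufa4l2 circle lies above its partner only in tumour 2.

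The summed markers of several other tissues were also lowest in tumour 1. The 20 skeletal muscle markers, of which 8 passed the filter, summed to 128 CPM in tumour 1, 61293 CPM in tumour 2 and 28710 CPM in tumour 3, and Ckm, muscle creatine kinase, was at 0.477, 32750 and 11606 CPM. Myh4 and Acta1, contractile proteins of skeletal muscle, had 8 and 14 counts in tumour 1. Red blood cell markers (5 of 5 past the filter) summed to 188, 3377 and 1855 CPM, and endothelial markers (6 of 6) to 147, 1047 and 377 CPM. The endothelial sum rests mostly on Pecam1, at 56.4, 775 and 231 CPM, and the median difference of that list in tumour 1 was −0.46. Brown adipocyte markers (3 of 6) summed to 15.03, 178 and 96.7 CPM, of which Cpt1b, also a muscle gene, held 2.05, 174 and 87.7 CPM, while the defining marker Ucp1 had 6, 0 and 25 counts. Their part in the levels of the subunit genes was not tested. Without the 7 tissue forms of complex IV and without Ndufa4l2, Atp5s and Atp5sl, the median difference in tumour 1 was −0.86 over 76 members, with 30 at least 2-fold below and 4 above, and complex IV alone stood at −1.47 without its tissue forms.

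The sums of the remaining marker lists differed less. White adipocyte markers (10 of 10 past the filter) summed to 597, 621 and 423 CPM in tumours 1, 2 and 3. Of these, Fabp4 was at 215, 144 and 120 CPM, Lpl at 72.6, 156 and 90.4 CPM and Adipoq at 24.3, 3.60 and 3.69 CPM. The median difference of that list in tumour 1 was 0.65. Fibroblast markers (8 of 8) summed to 3999, 6475 and 3493 CPM, with tumour 1 the lowest for 5 genes and the highest for 2. Of these, Col1a1 was at 1576, 3695 and 1625 CPM and Pdgfra at 18.1, 84.5 and 59.3 CPM. Macrophage markers (8 of 8) summed to 934, 3347 and 2201 CPM. The macrophage sum was also lowest in tumour 1, but in tumours 2 and 3 it rests mostly on C1qa, at 161, 2426 and 1369 CPM. Lyz2 was highest in tumour 1, at 478, 222 and 264 CPM, and the median difference of the macrophage list in tumour 1 was −0.23.

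ATP synthase combines an F1 head that makes ATP, a ring of c subunits that turns in the membrane, and a stalk that joins them. The catalytic head subunits were not low in tumour 1, with Atp5b (chromosome 10, 128083273 to 128090391, plus strand) at 444, 266 and 462 CPM and Atp5a1 at 557, 407 and 390 CPM. Atp5e, the smallest subunit of the head, was at 181 CPM in tumour 1, 922 CPM in tumour 2 and 958 CPM in tumour 3, a difference of −2.37. The membrane subunit Atp5k was at 115, 533 and 514 CPM, a difference of −2.19. In both, tumour 1 is the only low library. Atp5j, a stalk subunit known as coupling factor 6, was at 99.3, 13.4 and 34.3 CPM, a difference of 2.21 with tumour 1 more than 2-fold above both others.

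The 3 genes of the c ring encode the same mature protein with different leader sequences. Atp5g3 was at 209, 236 and 388 CPM, Atp5g1 at 82.4, 142 and 194 CPM and Atp5g2 at 85.2, 97.9 and 151 CPM. Tumour 1 was the lowest in each, though less than 2-fold below tumour 2. Atp5g3 held 55.5, 49.6 and 52.9% of the counts of the c ring genes. The share of Atp5g1 was 21.9, 29.8 and 26.5%. Values of Atp5g2 are uncertain, because the pseudogene Gm10175, which matches part of its transcript at 100% identity, held more counts than the gene. Summing both changes the difference of Atp5g2 in tumour 1 to −2.60, against −0.51 for the gene alone.

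The position of tumour 1 went along with transcript length. The 36 members at least 2-fold below had a median principal transcript of 680 bases, the 4 above one of 2279 bases, and the 43 that were neither one of 1046 bases. Across the 83 members, which are not independent replicates and share libraries, the difference of tumour 1 had a Spearman rho of 0.47 with principal transcript length and −0.26 with GC content. With the longest transcript of each gene, rho was 0.35 over the members and 0.24 over 12344 genes with a length, and for GC content it was −0.30 over those genes. With a linear trend on length and GC content over all genes removed, the median difference of the members in tumour 1 was −0.69, against 0.06 for all genes, and the medians by complex were −0.76, 1.34, −0.28, −1.32 and −0.49 from complex I to ATP synthase. After this adjustment 28 members were at least 2-fold below and 8 above, where 19.5 and 19.5% of all genes were.

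**Figure D4:**
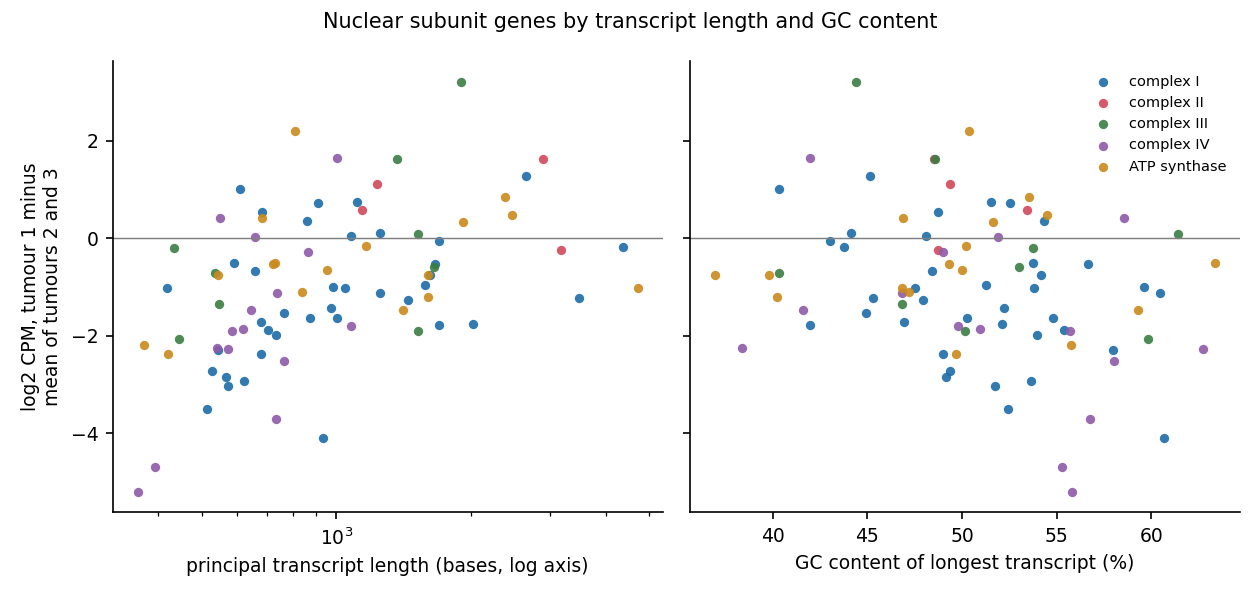
The difference in log2 CPM of tumour 1 from the mean of tumours 2 and 3 is plotted against principal transcript length (left, bases on a log axis) and GC content of the longest transcript (right, percent) for the 83 members past the filter, coloured by complex. Short transcripts reach the lowest differences, with a Spearman rho of 0.47 for length and −0.26 for GC content.

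The mitochondrially encoded subunits could be followed only through nuclear pseudogenes. Of the 13 mitochondrial subunit genes, 7 have a pseudogene row that matches the mitochondrial transcript at 99% identity or more. These 7 lie side by side on chromosome 1, from 24611535 to 24616197 (GRCm38), a span of 4663 bases. Another 2 genes have only less similar copies and 4 were not analysed here. In 5 of the 7, every window of 50 bases is identical to the mitochondrial gene, and the share is 97.1% in Gm29216 and 98.99% in Gm28438, against 27.5% in Gm13340. Within these copies, nearly all single reads of 50 bases cannot be told apart from mitochondrial RNA, and read pairs were not examined. The values below are thus taken as levels of shared sequence and not of either source.

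The copies were among the highest genes of these tumours. Gm28437, the copy of mt-Co3 (complex IV), was at 2795, 12034 and 6210 CPM in tumours 1, 2 and 3. Gm10925, the copy of mt-Atp6 (ATP synthase), was at 3265, 8288 and 5548 CPM. Gm29216, the partial copy of mt-Co1 shown above, was at 2191, 5450 and 5076 CPM and Gm28661, the copy of mt-Co2, at 3299, 5108 and 5334 CPM. In all of these tumour 1 was the lowest library. The copies of complex I genes were lower in tumour 1 by more, with Gm28439 (mt-Nd4) at 731, 6092 and 2621 CPM, Gm28438 (mt-Nd3) at 280, 2123 and 1463 CPM and Gm10222 (mt-Nd4l) at 142, 878 and 441 CPM.

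As with the nuclear members, the copies stood lowest in tumour 1. Their median difference in tumour 1 was −1.63, against −1.01 for the nuclear members and 0.11 for all genes. Tumour 1 was the lowest for 7 of 7 copies, and 5 of 7 were at least 2-fold below both others, where 20.7% of all genes were. In tumour 2 the copies and the nuclear members differed more, with medians of 1.53 and 0.18, and within lane 5 tumour 2 minus tumour 3 was 0.58 for the copies and −0.34 for the nuclear members. Set as a ratio of sums, the copies came to 1.48 times the nuclear members in tumour 1, 2.14 times in tumour 2 and 1.31 times in tumour 3, with 12704, 39973 and 26692 CPM in the copies. The ratio was thus highest in tumour 2, while tumours 1 and 3 were close.

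Per kilobase of the longest transcript, the median log2 level of the copies was above that of the nuclear members in every tumour. The difference was 5.70, 6.06 and 5.92 in tumours 1, 2 and 3, a mean of 5.89 ± 0.18 (SD, n = 3). The exact two-sided sign-flip permutation test over the 3 tumours gave p = 0.25, the smallest p this number of tumours allows. The gap was far larger than its spread between tumours. The less similar pseudogene Gm13340 (mt-Co1) did not follow the copies, with 390, 269 and 110 CPM and tumour 1 the highest.

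**Figure D5:**
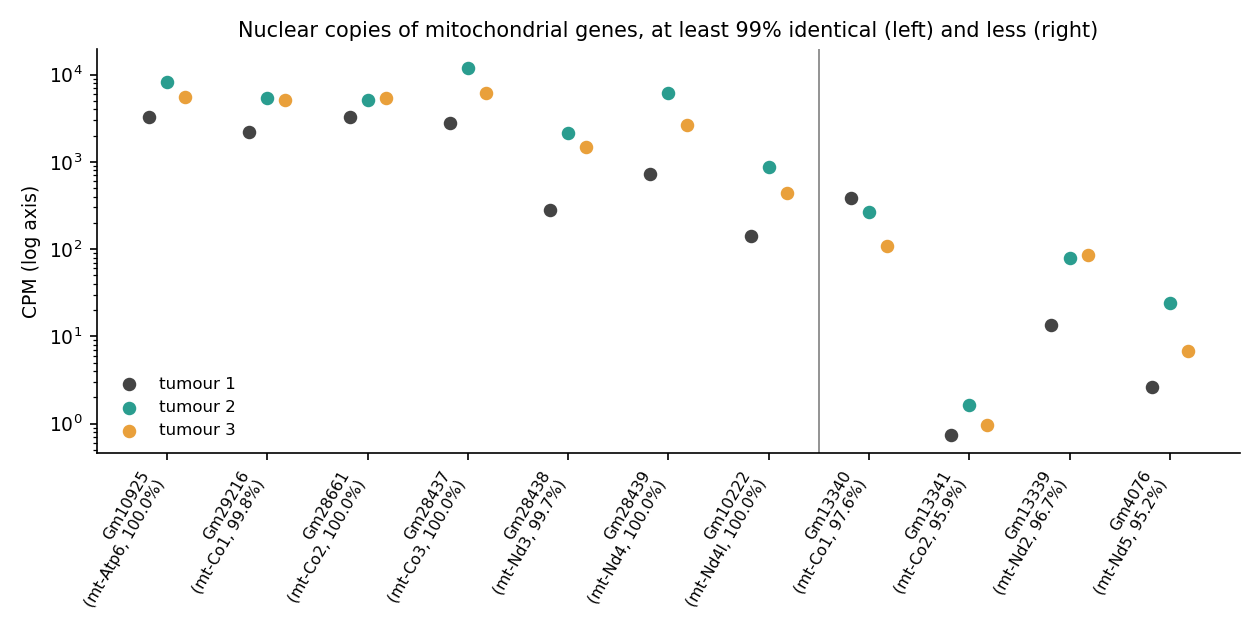
CPM on a log axis is plotted for the 7 nuclear copies that match a mitochondrial subunit gene at 99% identity or more (left of the line) and for 4 less similar ones (right), with a point for each tumour. Tumour 1 (black) is the lowest in each of the 7 near-identical copies, and Gm13340 is the only plotted row in which it is the highest.

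The lists of genes that build and regulate the respiratory chain had medians between −0.02 and 0.40 in tumour 1, against 0.11 for all genes. Assembly factors of the complexes, 43 past the filter, had a median difference of −0.02, with 7 at least 2-fold above and 10 below, where 22.1 and 20.7% of all genes were, shares that hold for the lists that follow as well. Those named by rule from this list were low, with Cox17, a copper chaperone of complex IV, at 40.4, 286 and 187 CPM in tumours 1, 2 and 3, Uqcc2 at 35.8, 179 and 179 CPM and Pet100 at 15.2, 131 and 126 CPM. Genes of mitochondrial DNA and RNA handling, 20 past the filter, had a median of 0.38, with 4 above and 2 below. The single-strand binding protein gene Ssbp1 was highest in tumour 1, at 53.6, 5.10 and 11.1 CPM. Fastk and Lrpprc, also named by rule, were lowest in tumour 1. Fastk was at 89.3, 180 and 157 CPM and Lrpprc at 49.96, 189 and 127 CPM. The 8 nuclear regulators had a median of 0.40, with 1 above and 0 below, among them Gabpa, a subunit of GABP, at 33.7, 6.96 and 15.7 CPM and Esrra at 70.2, 113 and 104 CPM. Like Esrra, Pprc1 was lowest in tumour 1, at 78.9, 151 and 167 CPM. The median longest transcripts of these lists were 2007, 3056 and 4570 bases in the order given, against 1046 bases for the subunits. Whether these lists differ from the subunits beyond other genes or beyond transcript length was not tested.

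Enzymes, carriers and outer membrane genes of the same organelle had medians above that of all genes. The 13 genes of the tricarboxylic acid cycle had a median difference of 0.78 in tumour 1, with 5 at least 2-fold above and 1 below, beside the 0.85 of complex II, which belongs to the same cycle. Mdh2, malate dehydrogenase, was at 291, 73.7 and 98.6 CPM and Idh3a, a subunit of isocitrate dehydrogenase, at 149, 30.8 and 57.3 CPM, whereas citrate synthase, Cs, was at 104, 436 and 329 CPM. The 7 genes of the list of carriers and the ATPase inhibitor had a median of 0.97, with 1 above and 1 below. The gene above was Slc25a5, an ADP and ATP exchanger, at 332, 23.1 and 58.4 CPM. Its relative Slc25a4 was at 298, 102 and 225 CPM. Slc25a3, the highest gene of this list, was lowest in tumour 1, at 324, 437 and 511 CPM. Outer membrane import and porin genes, 10 in all, had a median of 0.34, with 3 above and 1 below, and the porin gene Vdac3 was at 275, 29.5 and 47.3 CPM. The others named by rule were lowest in tumour 1, with Vdac2 at 189, 350 and 324 CPM and Tomm6 at 80.3, 205 and 217 CPM. On the same difference the nuclear subunits stood at −1.01. Transcripts of these lists are longer, with a median longest transcript of 2636, 2448 and 2030.5 bases in the order given, against 1046 bases for the subunits. The part of length in this contrast was not tested.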

How the data were processed

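The members, the other gene lists and the rules were chosen with earlier results of these data known. Salmon estimated counts per gene symbol were deposited by the authors, without scaling for depth or length, per the file headers. STAR, SAMtools, Picard and the build mm10 are named by the submitters' processing notes, with versions, annotation and strandedness not given in the sources used here, so that antisense genes cannot be told apart. RNA was made into Illumina TruSeq mRNA libraries and read as paired ends of 50 bases, per the labels' protocols.

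From there, estimated counts were rounded. Genes were kept by filterByExpr of edgeR 4.0.16 (R 4.3.3; minimum count 10, minimum total 15), and 12710 genes passed. In 1 group of 3 it asks for a level above a cutoff in all 3 libraries. The cutoff is relative to library totals, so the deepest library needs the most counts. A member near 0 in a single tumour is lost by this filter and was described by its counts. TMM factors were 1.48, 0.722 and 0.936, so that 1 count is worth 0.0145, 0.124 and 0.0636 CPM in tumours 1, 2 and 3. Log2 CPM used a prior count of 2. Members lay apart in a tumour when at least 2-fold above or below both others. A chi-square test (R 4.3.3) compared counts with scaled totals, adjusted over all genes. Poisson and Wilson intervals were computed with scipy 1.17.1. The steps were checked on simulated data. Because no mitochondrial gene was analysed under its own name, the planned comparison used the 7 copies found by BLAST 2.17.0 of GENCODE M21 transcripts, a choice made after seeing the data. Levels per length used the longest transcript, or the principal one where stated. Promoter windows are RefSeq's on GRCm38.p6.

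Genes were named by rule: for each complex the 3 members with the highest mean level per length and the one with the largest range, the tissue forms and their partners, every member at least 4-fold apart, and of other lists the 2 highest genes and the one with the largest range. For the cell type markers this rule was not followed in full, and Tnnt3, Col1a2, Emcn, Hba-a1, Hba-a2 and Ppargc1a are without values here. The other lists were cell type markers, assembly factors, mitochondrial gene expression, nuclear regulators, carriers, the tricarboxylic acid cycle and outer membrane genes. Members named beyond this rule, among them Ndufv1, Ndufv2, Ndufs1, Ndufs8, Uqcrc1, Uqcrfs1, Cyc1, Cox5b, Cox7c, Atp5a1, Atp5b and Atp5o, were chosen after their values were seen. Alternatives covered scaling (DESeq2 1.42.0 size factors, library totals), filters, prior counts of 0.5 and 10, thinning, shared copies, length and GC content, the fold, and leaving out each tumour.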

Additional observations from a re-analysis of the deposited data

How the results depend on the processing

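No paired analysis was possible because the labels form 1 group. Of 276 comparison values under an alternative, 232 stayed within the spread or within 1.5 times for counts, 38 moved and 6 changed sign. With library totals alone, where all genes shift as well, the nuclear members stood at −0.16 in tumour 1 and −0.53 in tumour 2, complexes I to IV and ATP synthase at −0.33, 1.70, 0.27, −1.02 and 0.19, and the copies at −0.78 in tumour 1. Members 2-fold apart were then 10 above and 16 below in tumour 1, 0 above and 20 below in tumour 2 and 2 above in tumour 3. With DESeq2 size factors 2 members were above in tumour 1. Removing the length and GC trend gave 8, 5 and 0 above in tumours 1, 2 and 3 and −0.0871 for the copies in tumour 3. At 1.5-fold, 8, 6 and 10 were above in tumours 1, 2 and 3 and 15 below in tumour 2. At 4-fold, 1 was above and 15 below in tumour 1, 0 above and 0 below in tumour 2 and 0 above in tumour 3. Without the tissue forms 1 was above in tumour 2. Leaving out a tumour, which leaves 1 comparison library, gave −0.34 to 0.79 for the nuclear members in tumour 2, 0.56 to 2.11 and −0.56 to 1.25 for the copies in tumours 2 and 3, and 4 to 12 above in tumour 1, 3 to 37 above and 11 to 12 below in tumour 2, and 11 to 46 above and 3 to 4 below in tumour 3. The copies minus nuclear members per length were 5.05 with the median transcript length, 5.49 with the principal one and 5.62 with means over members. Where a construction (scale, fold or fewer libraries) does not show the cause, it was not tested. Over the 33 named members, 380 of 394 settings gave the same, 14 moved and 0 changed sign. The quantity behind this tally is not given here. It does not show that the difference of each gene in tumour 1 kept its sign under every scaling. That of Uqcrc1, named beyond the rule, went from −0.58 to 0.27 with library totals alone. The planned tests on mitochondrial gene rows could not be run as written. Depth limits tumour 2 most, where 3 counts are 0.373 CPM.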
